A study of Homo sapiens with 4 samples.

Results

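The 10 genes GPC3, LIN28B, IGF2BP1, IGF2BP2, IGF2BP3, HMGA2, SALL4, TERT, MYC and MYCN are active in fetal liver or other fetal tissue and are known for their return in liver cancer. They were chosen by name, out of 20007 annotated protein-coding genes, and each was examined over its GENCODE gene body with 10 kb on either side. Overlapping peaks of the 4 libraries (1 bp sufficed) were joined, which gave 73 regions in the 10 windows of 80551 in all. The regions are numbered along each gene's window in genome order, so that TERT region 1 has the lowest coordinate of the TERT window.

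The libraries came from HepG2, a line grown from a human liver tumour, and were made by ATAC-seq (Omni protocol), in which a transposase cuts open chromatin and inserts sequencing adapters. Control cells (2 libraries) were untreated, and the other 2 libraries were from cells given 5 µM tazemetostat, dissolved in DMSO, for 48 h; whether the controls received the solvent is not stated in the sources used here. Each library was made from 50000 cells of this same line, and nothing in the labels says whether the libraries of a group came from separate cultures, so the spread between them may be technical. Tazemetostat blocks EZH2, the enzyme of polycomb repressive complex 2 that methylates histone H3 on lysine 27 at silenced genes, and the question was how accessibility differed under this inhibition.

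LIN28B binds the precursors of the let-7 microRNAs and stops their maturation, and the mRNAs of HMGA2, IGF2BP1, IGF2BP2, IGF2BP3, MYC, MYCN and LIN28B itself are known let-7 targets. The IGF2BP proteins bind and stabilise mRNAs, MYC among them, whereas HMGA2 is a chromatin protein that bends AT-rich DNA. GPC3 is a cell-surface proteoglycan used as a marker of hepatocellular carcinoma, SALL4 is a zinc-finger factor of embryonic stem cells and fetal liver, and TERT is the catalytic subunit of telomerase, whose transcription MYC can raise.

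Sequencing depth was 17.2 M and 23.8 M mapped tags for the control libraries, and 19.8 M and 26.6 M for the treated ones. They differed more in the tags that fell in called peaks, 11.5% and 9.81% of all mapped tags under tazemetostat against 4.32% and 5.69% in the controls, and in the number of peaks, 55313 and 54157 against 26133 and 34768. The header fragment length was 200 bp in both controls and 144 bp in both tazemetostat libraries, which cannot be told apart from the treatment. The methods also name a DNase I step, against free DNA and that of dead cells, for the tazemetostat-treated cells. Whether the controls had this step is not stated, so it cannot be told apart from the treatment either, and its part was not tested. A peak overlapped the promoter (from 1 kb before to 100 bp after a start) of 7 of 10 hepatocyte markers in all 4 libraries, ALB and FGB having none in any. Of 10 markers of other cells, CD68 alone had such a peak in all 4 libraries and 8 had none in any. Summed over the list, the tag count in the windows of the other-cell markers was 160.0 and 219.4 in the controls and 597.1 and 402.5 under tazemetostat, and that of the hepatocyte markers was 515.2 and 733.4 against 1438 and 1185; the part of these in the results below was not tested.

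The sequences of some member regions are given here, each as the central 200 bp of a region in hg38, plus strand. TERT regions 1 and 2 are shown since they alone of the member regions repeat themselves, and the capitals of region 1 mark a word of 12 bases that recurs along it. LIN28B region 5 and IGF2BP1 region 7 were picked from 11 regions listed under tazemetostat alone. They are the 2 of these that held CTTTGAT, the TCF/LEF letters described further down, so they do not stand for the 11. IGF2BP2 region 7 and HMGA2 region 8 are shown as regions with higher tag counts under tazemetostat, and IGF2BP2 region 12 as the strongest of its gene. In these 5, and in TERT region 2, the capitals mark letters of the motifs described further down; HMGA2 region 8 held none.
TERT region 1, chr5:1272897-1273096: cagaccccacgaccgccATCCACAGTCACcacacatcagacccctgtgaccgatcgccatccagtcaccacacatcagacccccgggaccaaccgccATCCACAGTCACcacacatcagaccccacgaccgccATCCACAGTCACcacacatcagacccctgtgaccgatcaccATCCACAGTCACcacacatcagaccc
TERT region 2, chr5:1290809-1291008: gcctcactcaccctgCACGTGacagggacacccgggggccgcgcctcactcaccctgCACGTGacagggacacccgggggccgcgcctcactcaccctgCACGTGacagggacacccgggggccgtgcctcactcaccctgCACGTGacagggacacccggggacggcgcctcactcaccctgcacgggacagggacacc
LIN28B region 5, chr6:105066240-105066439: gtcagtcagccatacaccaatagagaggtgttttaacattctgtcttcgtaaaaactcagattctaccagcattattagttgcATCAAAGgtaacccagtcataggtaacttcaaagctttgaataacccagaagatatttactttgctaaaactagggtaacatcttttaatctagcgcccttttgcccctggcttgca
IGF2BP1 region 7, chr17:49032459-49032658: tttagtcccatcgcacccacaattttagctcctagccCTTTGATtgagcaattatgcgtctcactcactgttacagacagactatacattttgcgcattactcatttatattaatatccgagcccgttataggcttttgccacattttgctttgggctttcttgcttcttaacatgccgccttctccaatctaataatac
IGF2BP2 region 7, chr3:185726606-185726805: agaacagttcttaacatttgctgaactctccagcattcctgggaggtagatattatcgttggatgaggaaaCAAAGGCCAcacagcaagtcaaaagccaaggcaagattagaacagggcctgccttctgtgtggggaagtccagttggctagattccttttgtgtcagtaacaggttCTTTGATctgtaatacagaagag
IGF2BP2 region 12, chr3:185796611-185796810: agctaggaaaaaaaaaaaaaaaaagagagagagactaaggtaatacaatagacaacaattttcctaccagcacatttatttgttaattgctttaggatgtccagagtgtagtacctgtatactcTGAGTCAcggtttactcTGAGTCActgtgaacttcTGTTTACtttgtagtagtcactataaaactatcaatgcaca
HMGA2 region 8, chr12:65896089-65896288: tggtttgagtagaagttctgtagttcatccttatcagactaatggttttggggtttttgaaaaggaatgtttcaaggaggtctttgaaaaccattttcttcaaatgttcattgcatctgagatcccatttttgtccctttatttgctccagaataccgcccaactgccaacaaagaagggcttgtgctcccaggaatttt

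Of the 73 regions, 20 were listed by all 4 libraries, against 20.4% of all merged regions, and 27 by a single library, against 46.2%. Another 11 were listed by both tazemetostat libraries and neither control library, and this share of 15.1% stood close to the 13.7% found over all merged regions. No member region was listed by both controls and neither tazemetostat library, a class that held 0.449% of all merged regions. As background to these counts, positions outside the called peaks have no value, so a region missing from a list was not measured as 0 there. By position, 45 regions lay in introns, 12 at promoters, 9 upstream, 5 downstream and 2 in exons.

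The tazemetostat-only regions were spread over 8 of the 10 genes, with TERT and MYCN as the exceptions. Over all protein-coding genes 32.5% had such a region, but the member windows were longer, with a median of 120.3 kb against 47.5 kb. LIN28B, IGF2BP2 and HMGA2 had 2 each, and GPC3, IGF2BP1, IGF2BP3, SALL4 and MYC had 1 each. These were weak regions: their mean tag count, given throughout as tags per 10 M mapped tags, had a median of 10.3 and ran from 7.04 to 19.3, against a median of 23.4 in the 20 shared member regions. With the same number of peaks taken from every library, MYC region 4 alone of the 11 was still tazemetostat-only, and GPC3 region 10 joined it as its weaker control 2 peak dropped out. With a fold of at least 8 over the local background, LIN28B region 5 and IGF2BP3 region 7 stayed. IGF2BP2 region 6 joined them as its control 2 peak, with a fold of 7.3, dropped out. By tag count that peak was not the weakest, at 11.8 against 12.6 and 8.66 under tazemetostat. With a library left out, the class rests on the libraries that remain and is easier to meet, so such counts are not like for like with the 11. Without control replicate 2 the count was 22 of 73 member regions, against 19638 of 75424 over all. It was 21 of 63 without tazemetostat replicate 1, against 24368 of 67010, and 21 of 63 without tazemetostat replicate 2, against 25276 of 67877.

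**Figure D1:**
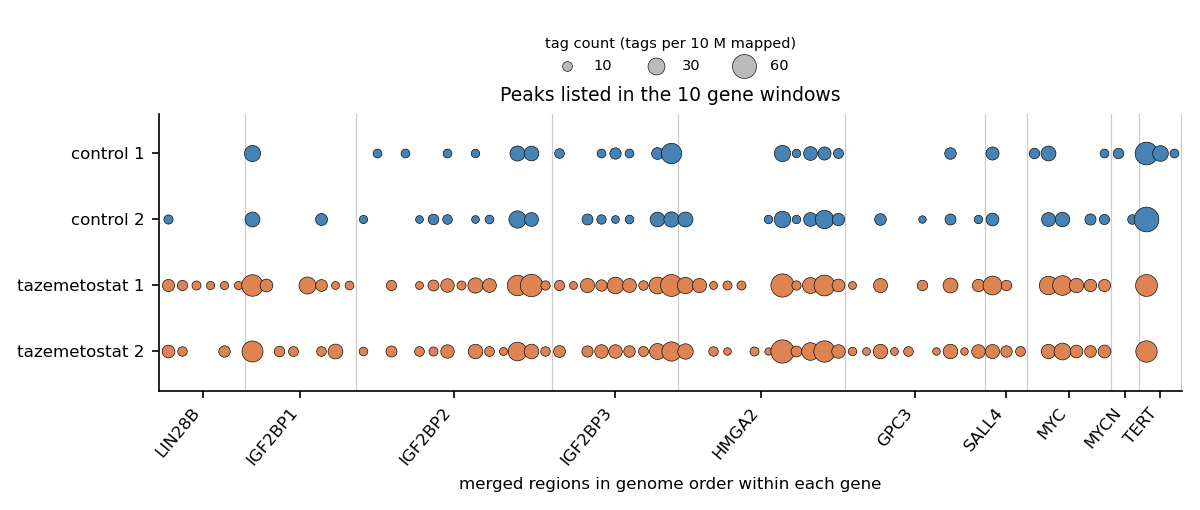
Peaks listed in the 10 gene windows; each column is 1 of the 73 merged regions in genome order within its gene, each row is a library, and the area of a dot is the tag count in tags per 10 M mapped tags (controls blue, tazemetostat orange). The LIN28B columns are empty in control 1, the MYCN columns are empty in both tazemetostat libraries, and the large dots of TERT are in its first region, listed in all 4.

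Summed over the 10 windows, the tag count of the listed peaks was 461.7 in control 1, 567.2 in control 2, 1113 in tazemetostat 1 and 983.2 in tazemetostat 2. The means were 514.5 ± 74.6 and 1048 ± 91.9 (SD, n = 2 each), and the groups did not overlap; a two-sided exact permutation test over libraries gave p = 0.3333, and 2 against 2 cannot give less. More sequence was covered as well, 25609 and 26549 bp under tazemetostat against 11936 and 16175 bp in the controls, and the tag count per kb of peak was 43.5 and 37.0 against 38.7 and 35.1. As a share of all tags in peaks, the members took 0.107% and 0.0997% in the controls and 0.0967% and 0.100% under tazemetostat. On this scale the difference turned to -0.0048 percentage points (exact permutation test, p = 0.6667).

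Of the 10 genes 8 had a peak in every library. Per mapped tag, the summed tag count of both tazemetostat libraries lay above that of both controls at 7 of these (GPC3, IGF2BP1, IGF2BP2, IGF2BP3, HMGA2, SALL4 and MYC), against 89.4% of such protein-coding genes, and below it at TERT, as in 0.428% of them. Per tag in peaks, 2 of the 8 were above (IGF2BP1 and SALL4), against 15.3% of such genes. TERT was below, on a scale where 32.0% of such genes were below, and the groups overlapped at the other 5. LIN28B had no listed peak in control 1 and MYCN none under tazemetostat, so that neither gave a measured order of all 4 libraries.

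**Figure D2:**
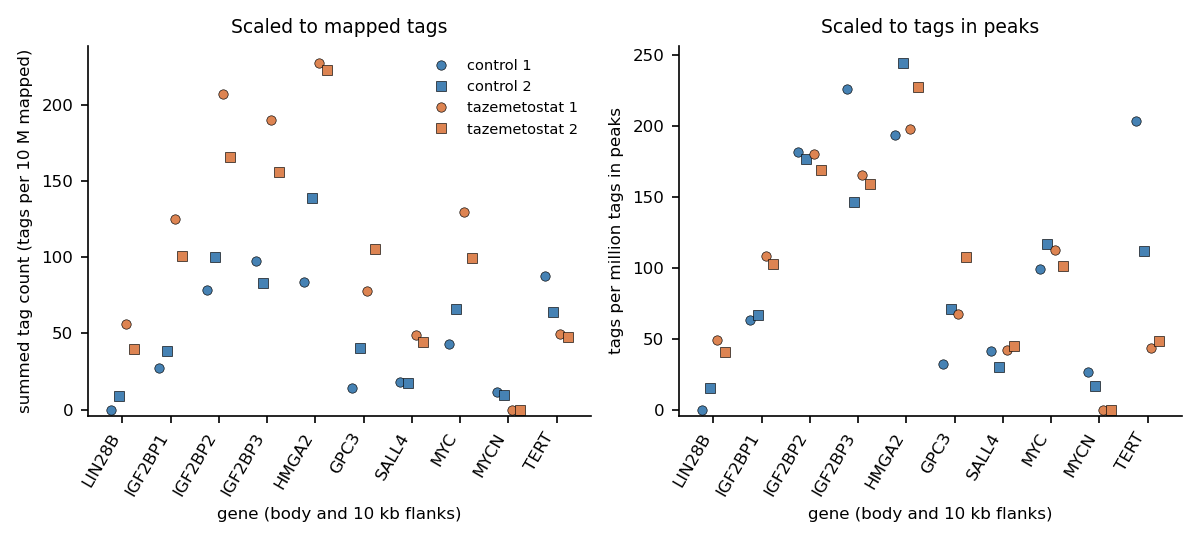
Summed value of the peaks in each gene window by library, on the left as tags per 10 M mapped tags and on the right as tags per M tags in peaks; each point is a library (controls blue, tazemetostat orange; circles replicate 1, squares replicate 2). Points at 0 stand for windows with no listed peak (LIN28B in control 1, MYCN under tazemetostat); of the 8 genes with a peak in every library, 7 have both tazemetostat points above both control points on the left and 2 do on the right, and TERT has both below on either scale.

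LIN28B, the let-7 inhibitor, had no peak in control 1 and 1 in control 2, with a tag count of 8.82, against 6 peaks summing to 56.4 in tazemetostat 1 and 3 summing to 39.9 in tazemetostat 2. Both treated libraries were thus above control 2, and no fold is given since control 1 listed nothing. The control 2 peak was in region 1 (chr6:104940267-104941148), which holds an annotated start of LIN28B and also one of the antisense gene LIN28B-AS1, 16400 bp upstream of the canonical start. There the tag counts were 8.82 in control 2, 15.6 in tazemetostat 1 and 16.9 in tazemetostat 2. The 2 tazemetostat-only regions were region 2 (chr6:104941239-104941689) and region 5 (chr6:105066139-105066540). Region 2, just downstream in an intron, had 11.1 and 9.41, and it holds annotated starts of LIN28B-AS1 and of an unnamed gene. Region 5, 109232 bp into the gene from the canonical start, had 7.05 and 13.6. At the canonical start itself, the nearest peak was called 833 bp upstream and in tazemetostat 1 only. Per M tags in peaks, LIN28B had 0 and 15.5 in the controls and 49.1 and 40.7 under tazemetostat.

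At IGF2BP1, which binds and stabilises MYC mRNA, the summed tag count was 27.3 and 38.2 in the controls and 124.9 and 101.0 under tazemetostat. Most of the control signal was in region 1 (chr17:48995920-48996864), about 1 kb upstream of the start by its centre, with tag counts of 27.3, 23.1, 48.4 and 46.3 in control 1, control 2, tazemetostat 1 and tazemetostat 2. Region 5 (chr17:49013265-49013926), which holds the start of a shorter transcript and also one of an unnamed gene, was listed by tazemetostat 1 alone at 30.2. The tazemetostat-only region 7 (chr17:49032159-49032958), in an intron, differed between its own replicates, at 6.55 and 23.0. Both treated sums were above both control sums on either scale, at 63.3 and 67.2 against 108.6 and 102.9 per M tags in peaks.

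IGF2BP2, the paralogue most widely expressed in adult tissue, had the most regions, 14, and summed tag counts of 78.5 and 100.5 in the controls and 207.1 and 165.7 under tazemetostat. Its promoter, region 13 (chr3:185824704-185825873), was listed by all 4 libraries at 22.7, 20.2, 52.4 and 22.6, and tazemetostat 1 stood apart from the other 3. The value of 52.4 is a sum of 2 peaks over 1011 bp, whereas the other libraries had 1 peak of 535 to 744 bp each. The strongest region was region 12 (chr3:185796301-185797119), 28332 bp into the gene, at 23.8, 31.1, 43.8 and 36.5. Both treated values lay above both control values there, as in 81.4% of all shared regions, and limma did not call it. Region 7 (chr3:185726396-185727014), in an intron that IGF2BP2-AS1 also spans, had 8.14 and 9.66 in the controls and 19.1 and 18.8 under tazemetostat. The 2 tazemetostat-only regions were region 3 (chr3:185660354-185660850), in an intron, at 11.1 and 12.8, and region 14 (chr3:185831097-185831474), 6243 bp upstream of the start, at 9.07 and 9.41. Per M tags in peaks the groups overlapped, at 181.7 and 176.5 against 180.0 and 168.9.

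The RefSeq promoter table (GRCh38.p14) held 5 of the 10 genes, and IGF2BP2 is printed as the one of these whose promoter was listed by every library. The 250 bases before its start are written on the gene's strand and are 81.6% G and C.
IGF2BP2 promoter, chr3:185825043-185825292: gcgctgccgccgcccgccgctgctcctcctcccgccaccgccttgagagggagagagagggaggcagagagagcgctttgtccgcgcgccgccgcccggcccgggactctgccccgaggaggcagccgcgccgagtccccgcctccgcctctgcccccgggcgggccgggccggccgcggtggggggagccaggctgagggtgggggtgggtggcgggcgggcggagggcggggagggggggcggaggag

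IGF2BP3, the paralogue most restricted to fetal tissue and tumours, had no promoter peak in any library, as was true of 37.1% of protein-coding genes. Its summed tag count was 97.7 and 83.2 in the controls and 190.5 and 156.2 under tazemetostat. The strongest region was region 9 (chr7:23473960-23474951), 3964 bp upstream of the start, at 43.6, 24.4, 49.9 and 38.8, where the groups overlapped. An annotated start of an unnamed gene lies in region 9. In the gene body, region 5 (chr7:23356878-23357681) had 13.4 and 6.30 in the controls and 28.7 and 19.2 under tazemetostat. Its neighbour region 6 (chr7:23357973-23358770) had 8.14 and 7.98 against 20.2 and 13.9, and region 4 (chr7:23336760-23337251) had 8.14 and 9.24 against 13.6 and 19.2. The groups did not overlap in these 3 intronic regions, which are named because limma called them higher. Both treated values lay above both control values in 81.4% of all shared regions. The tazemetostat-only region 7 (chr7:23391366-23391753), also intronic, had 9.57 and 10.5. Per M tags in peaks the gene had 226.2 and 146.3 in the controls and 165.6 and 159.3 under tazemetostat, and the groups overlapped.

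HMGA2 had the highest summed tag count of the 10 genes under tazemetostat, 227.8 and 223.1, and 83.8 and 139.0 in the controls. Its promoter was listed by tazemetostat 1 alone, in region 2 at 21.2, and that stretch also lies in the antisense pseudogene RPSAP52, which ATAC-seq cannot tell from HMGA2. Region 1, 1452 bp upstream of the start and likewise in RPSAP52, was not listed by control 1 and had 23.5 in control 2 and 28.2 and 24.8 under tazemetostat. The other regions were inside the gene, and region 8 (chr12:65895681-65896696), in an intron 71705 bp from the canonical start, had 27.9 and 29.0 in the controls and 56.4 and 56.8 under tazemetostat. Region 11 (chr12:65936926-65937878) had 18.0 and 35.7 against 45.4 and 47.8, with the controls far apart. The 2 tazemetostat-only regions, also intronic, were region 3 (chr12:65836496-65836871) at 6.55 and 9.41 and region 4 (chr12:65838636-65838986) at 8.57 and 6.02. Per M tags in peaks the gene had 193.8 and 244.5 in the controls and 198.0 and 227.6 under tazemetostat.

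GPC3, which spans the longest window of the 10 at 471.4 kb, went from 1 and 4 peaks in the controls to 5 and 9 under tazemetostat, with summed tag counts of 14.0, 40.3, 78.2 and 105.4. Its canonical promoter, region 8 (chrX:133985459-133986168), was listed by all 4 libraries at 14.0, 12.6, 23.2 and 22.2. Region 3 (chrX:133676344-133676956), in an intron, had the highest mean over the libraries that list it, at 14.3 in control 2 and 20.7 and 21.8 under tazemetostat. The start of an internal transcript, region 2 (chrX:133661975-133662275), was listed by tazemetostat 2 alone at 6.40, and the tazemetostat-only region 1 (chrX:133529552-133530000), downstream of the gene, had 6.55 and 7.53. Per M tags in peaks the groups overlapped, at 32.3 and 70.9 against 67.9 and 107.5.

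SALL4 had no promoter peak in any library and summed tag counts of 18.0 and 17.2 in the controls and 48.9 and 44.5 under tazemetostat. Region 1 (chr20:51781032-51781697), downstream of the gene, was listed by all 4 libraries at 18.0, 17.2, 37.3 and 20.7, and the tazemetostat-only region 2 (chr20:51800126-51800580), in an intron 2168 bp from the start, had 11.6 and 13.6. On the scale of tags in peaks SALL4 had 41.7 and 30.3 per M in the controls and 42.5 and 45.3 under tazemetostat, with a margin of less than 1 between control 1 and tazemetostat 1.

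MYC, a transcription factor that pairs with MAX at E-box letters, had the densest window, 21.8 regions per 100 kb, and summed tag counts of 43.0 and 66.4 in the controls and 129.5 and 99.7 under tazemetostat. Region 2 (chr8:127734997-127735626), which holds an upstream start, had 23.3, 20.2, 35.8 and 21.5, so that the groups overlapped. Region 3 (chr8:127735700-127736398), which holds the canonical start, was not listed by control 1 and had 22.3 in control 2 and 40.3 and 29.7 under tazemetostat. Both lie in CASC11 as well. The tazemetostat-only region 4 (chr8:127741677-127742191), in the last exon, had 21.7 and 16.9, the highest mean of the 11. Per M tags in peaks the gene had 99.6 and 116.7 in the controls and 112.6 and 101.7 under tazemetostat.

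MYCN, the paralogue of MYC best known in neuroblastoma, had 1 peak in each control library and none under tazemetostat. The peaks lay apart: region 1 (chr2:15938361-15938661) was listed by control 1 at 11.6 and region 2 (chr2:15940107-15940407), at the promoter, by control 2 at 9.66, and MYCNOS on the other strand spans both. They held 20 and 23 tags. Of the protein-coding genes 1.43% likewise had a peak in a control library and none in either tazemetostat library. With no position shared between the 2 controls, MYCN gave no region on which the groups could be compared.

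TERT was the member whose shared region went against the rest. Region 1 (chr5:1272516-1273477), in an intron 22072 bp from the start, had the highest mean tag count of all 73 regions, with 54.1 in control 1, 63.9 in control 2, 49.9 in tazemetostat 1 and 47.8 in tazemetostat 2. Both treated values were below both control values, as in 1.87% of all shared regions, whereas 16 of the 20 shared member regions had both treated values above, against 81.4%. Regions 2 (chr5:1290758-1291058) and 3 were listed by control 1 alone, at 25.6 and 8.14, and the TERT promoter had no peak in any library. Over the window the sums were 87.8 and 63.9 in the controls and 49.9 and 47.8 under tazemetostat, or 203.3 and 112.3 against 43.4 and 48.7 per M tags in peaks. Several libraries split region 1 into 2 peaks, which kept it out of the test described next; with the peaks of a library summed, an alternative chosen after seeing the data, limma gave a log2 difference of -0.26 ± 0.30 (SE, adjusted p = 0.426) on the mapped-tag scale and -1.02 ± 0.22 (adjusted p = 0.144) with the libraries centred on their medians.

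Regions 1 and 2 of TERT, both printed above, are tandem repeats. In region 1 the word ATCCACAGTCAC occurs 26 times in the 962 bases read, a median of 36 bp apart, and 66.3% of the bases equal the base 36 bp further on. In region 2 this share is 96.1% at 42 bp, and the E-box letters CACGTG stand 4 times in its central 200 bp. No other member region passed 39.8% at any distance from 10 to 150 bp, and the median over all regions was 33.0%. How tags that fit several copies of a repeat were placed is not given in the sources used here.

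The order seen at TERT was more frequent among repeats than elsewhere in the lists. With a limit of 60%, 240 of the shared regions on the primary chromosomes were repeats, TERT region 1 among them, and in 52.9% of these both treated tag counts were below both control counts, against 0.941% of the other 15834. Both treated counts were above in 6.25% of the repeats, against 83.0% of the others, and the groups overlapped in the rest. Their medians were 29.7 and 29.8 in the controls and 21.9 and 24.1 under tazemetostat, while those of the other regions were 16.3 and 19.7 against 33.8 and 29.4. Of all 1716 repeat regions, shared or not, 16.9% were listed by control 1 alone, as TERT region 2 was, against 5.65% of the rest, and 2.68% were tazemetostat-only, against 13.9%. With a limit of 70%, which TERT region 1 does not reach, 51.2% of 162 shared repeats were below, against 1.21%. This comparison and its limits were chosen after the TERT values had been seen, and the part of the repeat in the TERT values was not tested.

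**Figure D3:**
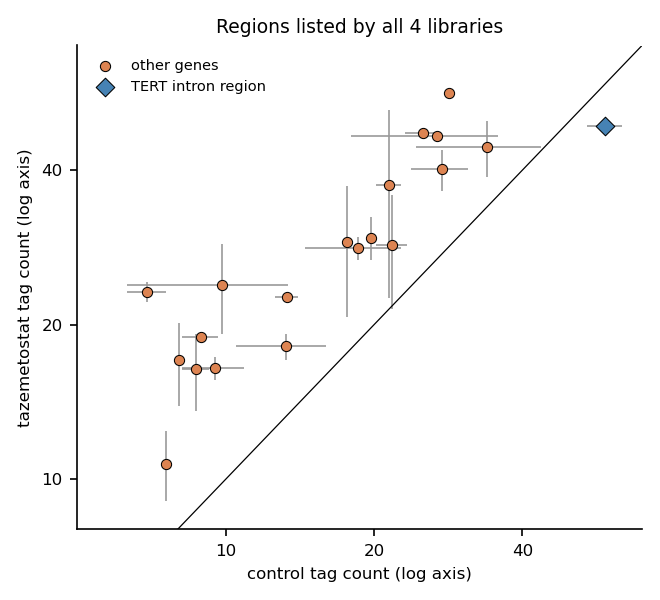
Tag count (tags per 10 M mapped tags, log axes) of the 20 member regions listed by all 4 libraries, with the control mean on the horizontal and the tazemetostat mean on the vertical axis; bars run from the lower to the higher replicate and the line marks equal values. The TERT intron region (blue diamond) lies below the line and the other 19 above it, whereas with centred libraries 8 of the 20 differences were positive.

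Shared member regions were also compared by shape. Peaks were longer in both treated libraries than in both controls in 11 of the 20 and shorter in 0, against 48.2% and 2.81% of all shared regions. The tag count per kb of peak was higher in 14 and lower in 1, against 72.0% and 2.34%. The fold over the local background went the other way: it was lower in both treated libraries in 6 of 20, against 16.4%, and higher in 2, against 21.8%. Its medians over the member regions were 7.13 and 5.72 in the controls and 5.39 and 5.50 under tazemetostat, while over all shared regions they were 6.93 and 6.05 against 6.78 and 6.09. Per kb of peak, TERT had 59.96 and 75.3 in the controls and 53.1 and 52.0 under tazemetostat, and LIN28B had the lowest density of the genes listed in a library, from 22.8 to 27.0.

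To test single regions, limma was run on log2(tag count + 1) over the 15383 regions with exactly 1 peak in every library, 17 of them in member windows. Of the 17, 8 were higher under tazemetostat past an adjusted p of 0.05 and none was lower, against 42.7% and 0.247% of all tested regions. None of the 17 was lower at an unadjusted p under 0.05 either, and edgeR and DESeq2 called none of them lower; TERT region 1 was not among the 17. All 17 differences were positive on this scale, with a median of 0.73 against 0.70 over all tested regions, and 7 of the 17 stayed positive with centred libraries. Once each library was centred on its median, which removes the shift common to all regions, the member median was -0.03 and limma called none, also at an unadjusted p under 0.05. edgeR with TMM factors and DESeq2 called none of them either.

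The regions past the threshold belonged to 5 genes. IGF2BP3 had 3, region 5 with a log2 difference of 1.26 ± 0.34 (SE; limma, adjusted p = 0.0137), region 6 with 0.97 ± 0.30 (adjusted p = 0.0214) and region 4 with 0.83 ± 0.30 (adjusted p = 0.0362). HMGA2 had 2, region 8 with 0.97 ± 0.29 (adjusted p = 0.0193) and region 11 with 0.85 ± 0.33 (adjusted p = 0.0428). IGF2BP2 region 7 differed by 1.02 ± 0.29 (adjusted p = 0.0169), the IGF2BP1 promoter-proximal region 1 by 0.89 ± 0.30 (adjusted p = 0.0264) and the GPC3 promoter by 0.73 ± 0.29 (adjusted p = 0.0496). IGF2BP2 region 12 (0.54 ± 0.30, adjusted p = 0.127), IGF2BP3 region 9 (0.42 ± 0.32, adjusted p = 0.251), SALL4 region 1 (0.63 ± 0.32, adjusted p = 0.0967) and MYC region 2 (0.34 ± 0.31, adjusted p = 0.331) did not pass. Per kb of peak, however, IGF2BP3 region 9 (0.59, adjusted p = 0.0303), MYC region 2 (0.59, adjusted p = 0.0311) and, named after its values were seen, MYC region 6 (0.81, adjusted p = 0.00433) passed in limma with an SE of 0.22 each, while only HMGA2 regions 8 and 11 of the 8 calls were kept. The SE per kb of peak was the same in every tested member region, so it holds no spread of a single region. MYC region 6 had missed the threshold per mapped tag at 0.74 (limma, adjusted p = 0.0501). Centring the libraries removed 0.76, the difference between the groups' mean library medians, after which IGF2BP3 region 5 stood at 0.50 and MYC region 2 at -0.42, and neither passed (adjusted p = 0.701 and 0.646).

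Without tazemetostat replicate 1 or without tazemetostat replicate 2 limma called no member region, with 3 and 6 at an unadjusted p under 0.05, on the assumption that the library left alone varied like the controls. Over all 15383 regions the calls likewise went to 0, with 3238 and 5977 higher at an unadjusted p under 0.05, while the member median stayed at 0.70 in both cases against 0.73 with all 4 libraries. Without control replicate 1, HMGA2 region 11 was at 0.37, GPC3 region 8 at 0.80 and IGF2BP3 region 4 at 0.75. Without control replicate 2, HMGA2 region 11 was at 1.32, IGF2BP3 region 5 at 0.77 and GPC3 region 8 at 0.66. Both fits gave every tested member region the same SE of 0.34, which holds no spread of a single region. Where the peaks of a library were summed, IGF2BP2 region 9 (chr3:185745011-185745892), which was chosen for mention after its values were seen, gave the lowest adjusted p of the members. Its tag counts were 7.56 and 6.30 in the controls and 24.2 and 22.2 under tazemetostat, for a log2 difference of 1.61 ± 0.30 (limma, adjusted p = 0.00653), and 0.85 ± 0.25 after centring (adjusted p = 0.254). In tazemetostat 2 the value of region 9 is a sum of 2 peaks. The peaks covered 300 bp in each control against 675 and 850 bp under tazemetostat. Per kb of peak the values were 25.2 and 21.0 against 35.9 and 26.1.

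**Figure D4:**
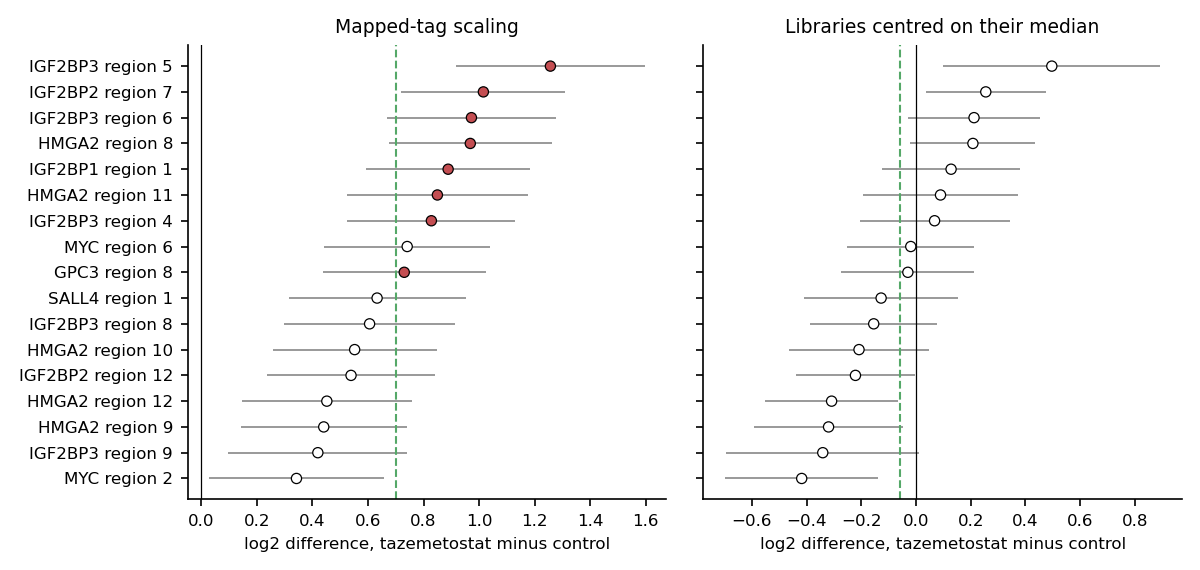
Log2 difference (tazemetostat minus control) of the 17 member regions with 1 peak in every library, per mapped tag on the left and with each library centred on its median on the right; bars are standard errors from limma, filled points have an adjusted p under 0.05, and the dashed line is the median of all 15383 tested regions. On the left all 17 points are positive and 8 are filled; on the right 7 are positive and none is filled.

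The letters of 9 motifs were searched on both strands in the central 200 bp of each region. TCF/LEF letters (CTTTGAT) were found in 5 of the 73 member regions, 6.85% against 3.57% of all regions, in LIN28B region 5, IGF2BP1 region 7, IGF2BP2 regions 6 and 7 and HMGA2 region 12. FOXA letters (TGTTTAC) were in 7, or 9.59% against 6.44%, and SP/KLF letters (GGGGCGGGG) in 3, against 3.61% of all regions. The HNF4 letters (CAAAGNCCA), which share the run CAAAG with those of TCF/LEF, were in IGF2BP2 region 7 alone, 1.37% against 3.04%. AP-1 letters (TGANTCA) were in 4, or 5.48% against 8.28%, and IGF2BP2 region 12 held them 2 times beside FOXA letters. The E-box of MYC and MYCN (CACGTG) was in the repeat of TERT region 2 alone, 1.37% against 3.68%, and ETS letters (CCGGAAG) were in HMGA2 region 11 alone, against 3.16%. CTCF letters were in 3, against 4.62%, and HNF1 letters in none, against 0.137%. The member regions held fewer G and C than the whole, with a median of 48.0% against 53.0%. A match describes the letters and is not a measured site.

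A further 20 genes of the oncofetal, LIN28 and let-7, MYC and telomerase programmes were examined in the same way. Of these, 9 had a tazemetostat-only region, against 32.5% of protein-coding genes, and none a control-only region, against 1.34%. Among the 10 with a peak in every library, 8 had both treated sums above both control sums on the mapped-tag scale, against 89.4%, and DICER1 and SALL1 overlapped. Per tag in peaks TERF2 alone of the 10 was above, and PEG10, LIN28A, MXD1 and DICER1 were below. Over such protein-coding genes 15.3% were above and 32.0% below on this scale. Limma tested 15 of their regions on the mapped-tag scale, of which 4 were higher, against 42.7% of all tested regions, and none was lower, against 0.247%. Their median log2 difference was 0.58, against 0.70 over all tested regions. With centred libraries no region of the whole table was called, these 4 included. TERF2, a telomere-binding protein, had 2 of the 4, at 1.65 ± 0.31 (adjusted p = 0.00423) and 1.07 ± 0.31 (adjusted p = 0.0167). AFP, the fetal serum protein, had 1 at 1.11 ± 0.32 (adjusted p = 0.0170) and DIS3L2, a nuclease that degrades uridylated let-7 precursors, had 1 at 0.91 ± 0.35 (adjusted p = 0.0445). The paralogue LIN28A gave 0.58 ± 0.30 and 0.34 ± 0.33 in its 2 tested regions, and neither passed (adjusted p = 0.103 and 0.348).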

How the data were processed

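Open chromatin was measured in 4 HepG2 ATAC-seq libraries, grouped by their titles into 2 control and 2 tazemetostat libraries. The methods and the submitters' processing notes give Trim Galore 0.6.6 for trimming, Bowtie2 2.3.5.1 for alignment to hg38 (inserts up to 2000 bp) and HOMER 4.11.1 for peaks, which the authors called library by library. The headers show that 300 bp peaks were stitched, and that each needed a 4-fold signal over the 10 kb around it and a p-value of 0.0001 there; the headers give a false discovery rate of 0.001 and the methods 0.05. A shift of tags for the transposase is not given in the sources used here.

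As deposited, the normalised tag count is a signal and gives the tags of a peak per 10 M mapped tags. The deposited fold over the local background is a ratio. The deposited score, a tag count, and the deposited p-value were not used in any test. Normalised tag counts multiplied by the mapped tags lay within 0.25 of a whole number in 100% of peaks and summed to the header totals; these whole tags entered edgeR and DESeq2. The lowest listed tag counts were 6.40, 5.04, 5.04 and 4.89, and the local filter removed 77.0%, 80.0%, 62.7% and 70.9% of putative peaks, so a position with no peak has no value and its limit is unknown. The labels mention no molecular identifiers.

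Peaks were merged across libraries (overlap of at least 1 bp) and placed on GENCODE release 44. On log2(tag count + 1), which compresses differences between low values, limma 3.58.1 (lmFit, then eBayes, without a block) was fitted over the regions with 1 peak per library, with Benjamini-Hochberg adjustment over all of them and a threshold of 0.05. edgeR 4.0.16 and DESeq2 1.42.0, in R 4.3.3, were alternatives. Single values were compared between groups by a two-sided exact permutation test. In a simulation of the tazemetostat against control comparison, 200 of 15383 regions were changed 3-fold, with no shift common to all regions. Limma recovered 97.5% with 4.41% false calls. The real libraries had such a shift (0.76 in log2), so these rates do not carry over to the calls above.

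The 10 genes and all lists were chosen with earlier results of these data known. Named within each window were regions that hold a transcription start, the region of highest mean tag count, every tazemetostat-only or control-only region, and regions past the threshold in limma, at most 3 for a gene. Sequences came from hg38 and RefSeq.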

Additional observations from a re-analysis of the deposited data

How the results depend on the processing

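In the member windows the tazemetostat-only count was 11 of 73 regions. At a local fold of at least 8 it was 3 of 31, in 3 genes, against 3652 of 27361 over all regions. Of these 3, 2 were among the 11. With equal numbers of peaks it was 2 of 45, in 2 genes, and 1 was among the 11. Over all regions this setting gave 2590 of 43186, with 1088 control-only. When a library was left out, which makes the class easier to meet, the count ran from 12 to 22, against 13183 to 25276 over all. Control-only regions then ran from 0 to 6, against 696 to 5750 over all. The summed difference of 533.7 ran from 468.8 to 598.7 when a library was left out, was 143.8 at a local fold of at least 8, 334.9 with equal peaks and 888.8 with 50 kb flanks, and reversed to -0.0048 percentage points as a share of tags in peaks. The cause was not tested for any of these.

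Limma called 8 member regions higher. The count was 5 of 17 per kb of peak, against 32.9% of all tested regions. Of these 5, 2 were among the 8 (HMGA2 regions 8 and 11) and 3 were gained (IGF2BP3 region 9, MYC regions 2 and 6). At a mean tag count of at least 20, where 9 of the 17 regions were tested, it was 3, against 54.1% over all. It was 0 with centring, TMM factors (edgeR) or DESeq2, and 0 with peaks summed and centred. Over all regions, 6569 were higher and 38 lower; centring gave 0 and 0, with 468 and 1188 at an unadjusted p under 0.05, also 0 and 0 with peaks summed, TMM 23 and 174, and DESeq2 3 and 103. A mean tag count of at least 20 gave 23 lower. Leaving out a library gave 0 to 8398 higher and 0 to 71 lower, and without control replicate 1 there were 3237 higher. The median member difference of 0.73 was 0.40 per kb of peak, 0.064 with TMM and 0.060 with DESeq2, and reversed to -0.030 with centring and -0.065 with peaks summed and centred.

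Of 11 named regions followed through the alternatives, 4 reversed with centring. GPC3 region 8 was at -0.030 with centring and -0.031 with peaks summed and centred. IGF2BP3 region 9 was at -0.34 with centring, -0.32 with TMM, -0.36 with DESeq2 and -0.34 summed and centred. SALL4 region 1 was at -0.13, -0.027, -0.029 and -0.13 in that order. MYC region 2 was at -0.42, -0.34, -0.35 and -0.42. It ran from -0.013 without tazemetostat replicate 1 to 0.70 without tazemetostat replicate 2. Other tested regions that turned negative with centring were IGF2BP2 region 12 (-0.22), IGF2BP3 region 8 (-0.15) and MYC region 6 (-0.019). HMGA2 regions 9, 10 and 12 turned negative too (-0.32, -0.21 and -0.31). GPC3 region 8, at an adjusted p of 0.0496, ran from 0.0490 to 1.00 over the alternatives.

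The replicate numbers were not shown to pair the libraries: deviations of same-numbered libraries correlated at r = -0.0025 across 15383 regions, which are not independent. With the replicate block limma called 6 member regions, losing GPC3 region 8 (adjusted p = 0.0827) and IGF2BP3 region 4 (adjusted p = 0.0548). Over all regions it called 5046 higher and 27 lower. Its SE of 0.35 was the same in every tested member region. At depths of 17.2 to 26.6 M tags with no values outside peaks, absence from a list does not bound the signal there.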
